A study of Rattus norvegicus and Ovis aries with 113 samples.

Results

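The sheep mitochondrial genome is represented in the count table by 37 entries whose names start with KEF53, out of 31304 entries in all. They were taken by that name alone, without any measured value. A letter after the prefix divides them into 13 entries of class p, 2 of class r and 22 of class t. The files do not spell out the letters, and the numbers equal those of the protein-coding, ribosomal RNA and transfer RNA genes that a mammalian mitochondrial genome is known to carry. Single entries are written here by letter and number, so that p11 is KEF53_p11, because the files pair them with no gene symbol. They occupy the last 37 rows of the table, 31268 to 31304, where entries of the 3 classes alternate.

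The RNA came from 5 post-pubertal male sheep, numbered 687, 688, 690, 694 and 699, and no treatment was given. Each animal gave 1 library from each of 10 dissected brain regions, all from the same hemisphere, and 1 library from sperm. The regions were basal ganglia, cerebellum, entorhinal cortex, frontal cortex, hippocampus, motor cortex, pons, posterior parietal cortex, prefrontal cortex and visual cortex. This gives 50 brain and 5 sperm libraries, with 5 animals in every group and the same 5 animals throughout.

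Mitochondrial DNA is a small circle transcribed from both strands into long precursor RNAs, which are then cut, often at the transfer RNAs that lie between the longer genes. Its protein genes encode subunits of the respiratory chain and of ATP synthase, and its ribosomal and transfer RNAs serve the mitochondrion's own ribosomes. Neurons depend heavily on this oxidative ATP supply, while mature sperm carry mitochondria in the midpiece and have lost most cytoplasm and cytoplasmic RNA. An mRNA library kit as used here mainly captures polyadenylated RNA, which covers mitochondrial messenger RNAs well and transfer RNAs poorly.

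Brain libraries held 57.0 M counts on average ± 5.05 (SD, n = 50), from 46.7 to 72.4 M, and the sperm libraries held 13.7 to 65.1 M, where M is 1000000. The 95% binomial interval (Wilson method) of the members' share was at most 0.0334 percentage points wide in any library. It covers counting error only, so the spread between animals set the precision. Markers of neurons summed to 3120 counts per 1000000 counts (CPM) ± 1185 in brain and to 14.8 to 37.6 in sperm, in which none of the 6 neuron genes was at 0 in every library. The late spermatid and sperm list was at 293 to 1420 CPM in 4 of the 5 sperm libraries. In the library labelled sperm of sheep 688 it was at 57.9 CPM, within the brain range of 21.7 to 86.7. The brain mean was 41.0 ± 18.2, and PRM1, a protamine of sperm chromatin, was at 0 in every brain library. Neutrophil genes reached 1580 to 39920 CPM in sperm and stratified squamous epithelium genes 793 to 21670, against means of 2.21 and 1.70 in brain, and the library of sheep 688 was the highest in both. The sperm libraries therefore carried markers of other cell types, and their part in the results below was not tested.

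A group of 4 further entries, LOC121818850, LOC121818849, LOC114112490 and LOC114112704, was taken out of the totals. What they encode is not given in the sources used here. They took 7.57% of all counts in brain ± 2.12 (SD, n = 50, 3.89 to 14.6) and 59.3% ± 24.2 in sperm (SD, n = 5). In the sperm of sheep 687, 699, 694, 690 and 688 they took 85.2, 75.8, 60.4, 52.9 and 22.4%. Levels below are shares of the remaining counts, those left after these entries are removed, unless all counts are named. Sums of marker lists in CPM, ranks among all entries and correlations of log2 CPM were computed on all counts. In bulk samples, fewer cells of a type and less RNA per cell cannot be told apart.

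The mitochondrial entries together held 20.1% ± 6.25 of the remaining counts in brain (SD, n = 50, 7.78 to 33.9) and 10.3% ± 9.46 in sperm (SD, n = 5). Class p made up most of this, at 18.8% ± 5.86 in brain and 7.85% ± 7.82 in sperm. Class r held 1.11% ± 0.384 in brain and 2.40% ± 1.57 in sperm. Class t held 0.185% ± 0.0584 in brain and 0.0700% ± 0.0781 in sperm. Class p thus held most mitochondrial counts in both tissues, and the mean of class r was higher in sperm while the means of p and t were lower.

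The 5 sperm libraries held 0.495% (sheep 687), 1.40% (699), 5.85% (688), 12.6% (694) and 18.9% (690) in class p. The class r share was 0.923, 1.06, 2.11, 3.27 and 4.64% in the same order of animals, and the class t share 0.00518, 0.00816, 0.0497, 0.0928 and 0.194%. All 3 classes ranked the sperm libraries alike. Sperm of 687, 699 and 688 lay below all 50 brain libraries in classes p and t, sperm of 690 and 694 lay within the brain range, and in class r the latter pair lay above it. The 2 libraries lowest in mitochondrial counts, 687 and 699, were also the 2 with the highest share of the LOC entries, and whether this had a part in the results was not tested.

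**Figure D1:**
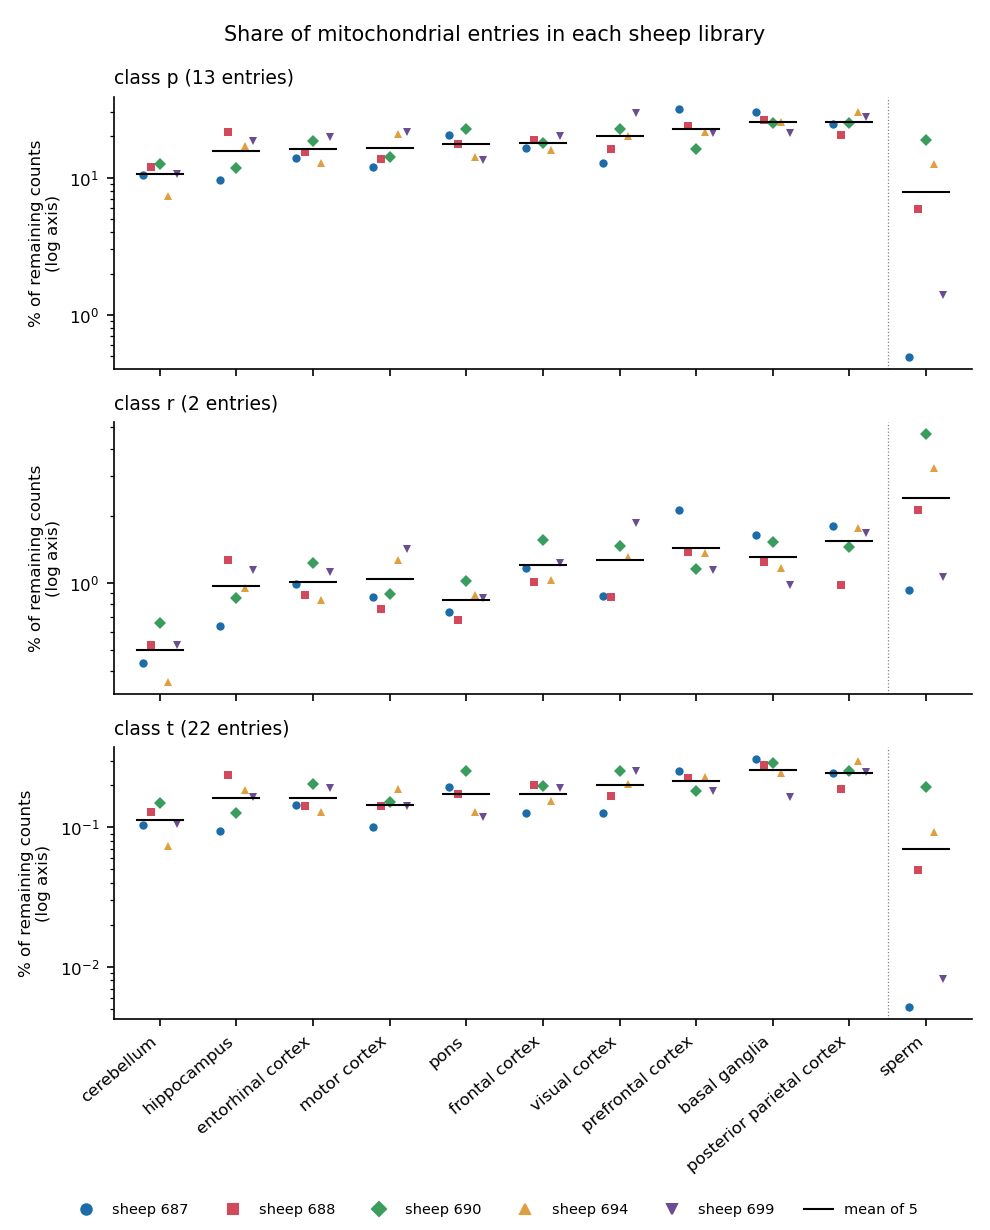
Share of the remaining counts (percent, log axis) held by the mitochondrial entries of class p, class r and class t in every library, by tissue; colours and markers give the 5 sheep and the black line the mean of 5. Cerebellum has the lowest region mean in each class, and the sperm libraries spread from 0.495 to 18.9% in class p.

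Whether sperm differed from brain was tested on the log2 share, with 5 sperm values against 5 brain values, each the mean of an animal's 10 regions, by a 2-sided exact permutation test whose smallest possible p is 0.00794. The test took sperm and brain as separate groups, without the pairing by animal. As a share of all counts, class p was 12.0-fold lower in sperm (log2 difference -3.58, exact permutation p = 0.00794, adjusted over 7 measures 0.0111, lower in 5 of 5 sheep) and class t was 14.2-fold lower (-3.83, exact permutation p = 0.00794, adjusted 0.0111). All members together were 7.91-fold lower (-2.98, exact permutation p = 0.00794, adjusted 0.0111), and the LOC entries were 7.40-fold higher (2.89, exact permutation p = 0.00794, adjusted 0.0111). Class r was at -0.47 and did not pass (exact permutation p = 0.532), with sperm higher in 3 of 5 sheep. The t to p ratio was at -0.25 (exact permutation p = 0.206, lower in 4 of 5 sheep), and passed when labels were moved within each sheep (permutation adjusted p = 0.00217).

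Single animals moved the size of these differences, though the p, t and all-member differences passed without each sheep in turn (exact permutation of 4 against 4, smallest possible p 0.0286, adjusted 0.04). Without sheep 687 class p was 5.86-fold lower, class t 7.45-fold and all members 4.47-fold. Without sheep 690 class p was 19.0-fold and class t 23.1-fold lower, and without 699 class t was 9.23-fold lower. Without sheep 688, whose sperm library lay within the brain range for the sperm list, class p was 16.1-fold lower, class t 19.0-fold and all members 10.2-fold. Without the sperm of both 687 and 699, class p was 2.81-fold lower and class t 3.39-fold, in 3 animals against 3, where the smallest possible p is 0.1. These differences also depended on the denominator. Of the remaining counts, class p was 4.53-fold lower (-2.18, exact permutation p = 0.0397, adjusted 0.0794) and class t 5.36-fold lower (-2.42, exact permutation p = 0.0397, adjusted 0.0794), and neither passed after adjustment. Class t was lower in 5 of 5 sheep and class p in 4 of 5. All members were at -1.58 (2.99-fold lower, exact permutation p = 0.103) and class r at 0.94 (1.92-fold higher, exact permutation p = 0.119). Against TMM-scaled library sizes, class p was at -1.07 and class t at -1.31, neither passing, and class r was at 2.05 and passed (exact permutation p = 0.00794, adjusted 0.0198). The lower p and t share in sperm was therefore called on all counts, in which the LOC entries weigh, and on neither other scale.

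**Figure D2:**
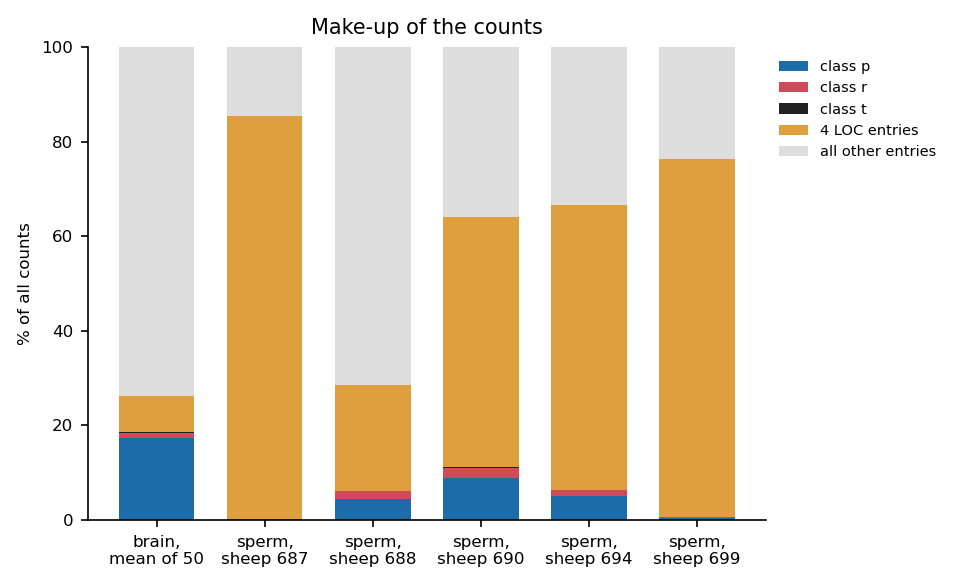
Percent of all counts taken by class p, class r and class t entries, by the 4 LOC entries and by all other genes, as stacked bars for the mean of 50 brain libraries and for each sperm library. The LOC entries take 22.4 to 85.2% of the sperm libraries and 7.57% of the brain mean.

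The ratio of class r to class p does not contain the library total. Class r counts were 5.90% of class p counts in brain ± 1.01 (SD, n = 50, 3.60 to 8.73). They were 186% in the sperm library of sheep 687, 75.6% in that of 699, 36.1% in that of 688, 26.0% in that of 694 and 24.5% in that of 690. All 5 sperm libraries thus lay above all 50 brain libraries, and only in sperm of 687 did the 2 r entries outnumber the 13 p entries. The ratio was 8.67-fold higher in sperm (log2 difference 3.12, exact permutation p = 0.00794, adjusted 0.0111, higher in 5 of 5 sheep). Without sheep 687 it was 6.32-fold higher, without 690 10.6-fold and without 688 9.12-fold. With the sperm libraries of 687 and 699 both left out, an alternative chosen after seeing the data, it was 4.96-fold higher in the 3 animals left.

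**Figure D3:**
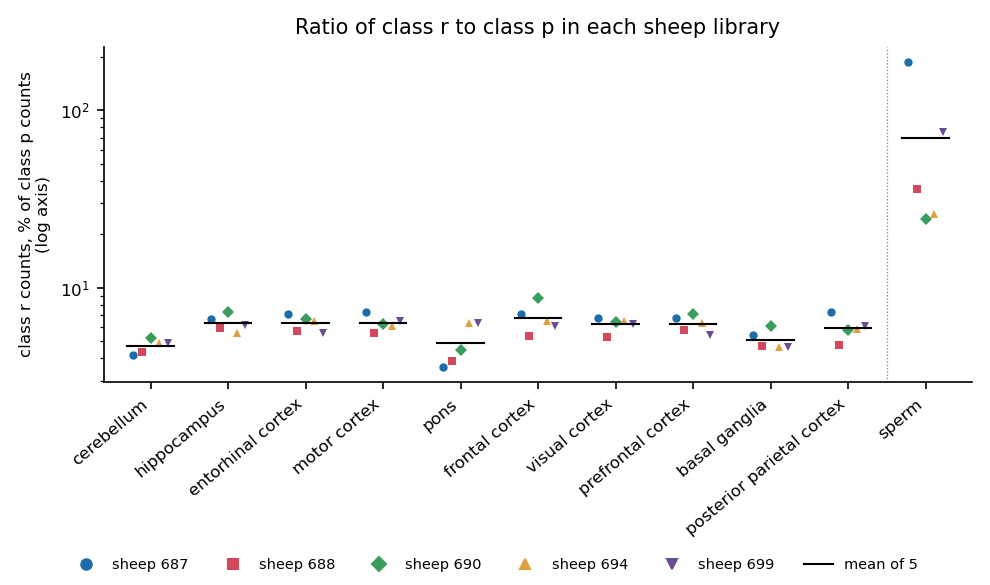
Class r counts as percent of class p counts in every library (log axis), by tissue, with colours and markers for the 5 sheep and a black line for the mean of 5. Brain libraries lie between 3.60 and 8.73% and sperm libraries between 24.5 and 186%.

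Among the single r entries, r01 took most of the class. r01 held 0.888% ± 0.305 of the remaining counts in brain (SD, n = 50) and 1.88% ± 1.26 in sperm (SD, n = 5). Sperm shares of r01 were 0.610, 0.859, 1.75, 2.50 and 3.69% in sheep 687, 699, 688, 694 and 690. By region, r01 averaged 0.401 ± 0.0996 in cerebellum, 0.667 ± 0.101 in pons, 0.782 ± 0.190 in hippocampus, 0.808 ± 0.141 in entorhinal cortex, 0.829 ± 0.206 in motor cortex, 0.958 ± 0.171 in frontal cortex, 1.02 ± 0.329 in visual cortex, 1.05 ± 0.220 in basal ganglia, 1.12 ± 0.300 in prefrontal cortex and 1.25 ± 0.265 in posterior parietal cortex (percent, SD, n = 5 each). In r01, 3 of 5 sperm libraries lay above the highest brain library, and the cerebellum and pons had the lowest region means.

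r02 held 0.220% ± 0.0857 of the remaining counts in brain (SD, n = 50) and 0.519% ± 0.327 in sperm (SD, n = 5). Sperm shares of r02 were 0.313, 0.198, 0.358, 0.771 and 0.958% in sheep 687, 699, 688, 694 and 690. By region, r02 averaged 0.0986 ± 0.0160 in cerebellum, 0.167 ± 0.0378 in pons, 0.189 ± 0.0663 in hippocampus, 0.201 ± 0.0273 in entorhinal cortex, 0.209 ± 0.0809 in motor cortex, 0.240 ± 0.0598 in frontal cortex, 0.244 ± 0.0967 in visual cortex, 0.257 ± 0.0571 in basal ganglia, 0.286 ± 0.0823 in posterior parietal cortex and 0.310 ± 0.108 in prefrontal cortex (percent, SD, n = 5 each). All 5 cerebellum libraries were below the other 45 brain libraries in r02, and 2 of 5 sperm libraries were above all of brain. In a fit of all genes by edgeR's quasi-likelihood test, which scales libraries by TMM factors, r01 rose in sperm by 2.44 on the log2 scale (SE 0.20, adjusted p = 9.93e-16) and r02 by 2.52 (SE 0.20, adjusted p = 3.06e-16). On plain library totals the same edgeR values were 0.16 and 0.21 and did not pass. TMM factors were 0.114 to 0.305 in sperm against a mean of 1.18 in brain, so the size of every sperm difference below depends on that scaling.

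Of the 37 entries, 33 passed the filter on low counts, and t01, t17, t18 and t19 did not. An entry was called in sperm at an edgeR adjusted p below 0.05 with a change of at least 2-fold. By this rule 3 members were higher (r01, r02 and t09) and 14 were lower (p09, p12 and 12 of class t). Over all 21859 genes tested, 33.1% were higher and 41.1% lower, with a median log2 change of -0.42. Against that background the 14 of 33 lower members are close to the share of all genes, and the 3 of 33 higher members are below it. The tested t entries t02, t05, t07, t08 and t13 were at 0 in every sperm library and passed the low-count filter through brain alone. Their direction was thereby fixed, so a lower call among them adds nothing to that count. Class p had a median of -0.11 and class t of -3.49, a median that includes 5 t entries at 0 in sperm whose fitted values are no measure of size. On plain library totals 0 members were higher and 30 were lower, and the median over all genes was itself low there, at -2.84. The calls of most p entries thus depend on the scaling.

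The class p entries differed among themselves. p11 held 5.27% ± 1.65 of the remaining counts in brain (SD, n = 50) and 2.81% ± 2.71 in sperm (SD, n = 5). Sperm shares of p11 were 0.147, 0.514, 2.35, 4.50 and 6.55% in sheep 687, 699, 688, 694 and 690. By region, p11 averaged 3.18 ± 0.590 in cerebellum, 4.08 ± 1.15 in hippocampus, 4.42 ± 0.748 in entorhinal cortex, 4.63 ± 1.16 in motor cortex, 5.16 ± 0.507 in frontal cortex, 5.33 ± 1.43 in pons, 5.53 ± 1.10 in basal ganglia, 6.12 ± 1.74 in visual cortex, 6.67 ± 1.72 in prefrontal cortex and 7.55 ± 1.32 in posterior parietal cortex (percent, SD, n = 5 each). It was the most counted of all members in brain, where it ranked first among all entries of the table, and ranked 8th in sperm. The order of regions differed from that of other p entries in that basal ganglia stood below posterior parietal, prefrontal and visual cortex. In sperm against brain p11 was at 0.45 (SE 0.32, edgeR adjusted p = 0.190), and at -1.79 on plain library totals.

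p07 held 2.204% ± 0.797 of the remaining counts in brain (SD, n = 50) and 1.13% ± 1.17 in sperm (SD, n = 5). Sperm shares of p07 were 0.0906, 0.262, 0.718, 1.66 and 2.90% in sheep 687, 699, 688, 694 and 690. By region, p07 averaged 1.23 ± 0.249 in cerebellum, 1.76 ± 0.279 in entorhinal cortex, 1.77 ± 0.670 in hippocampus, 1.96 ± 0.469 in pons, 2.01 ± 0.816 in motor cortex, 2.12 ± 0.298 in frontal cortex, 2.18 ± 0.811 in visual cortex, 2.76 ± 0.857 in prefrontal cortex, 2.84 ± 0.299 in posterior parietal cortex and 3.43 ± 0.415 in basal ganglia (percent, SD, n = 5 each). Basal ganglia had the highest mean of p07 and cerebellum the lowest. p04 held 2.13% ± 0.689 of the remaining counts in brain (SD, n = 50) and 0.717% ± 0.691 in sperm (SD, n = 5). Sperm shares of p04 were 0.0415, 0.116, 0.580, 1.24 and 1.61% in sheep 687, 699, 688, 694 and 690. By region, p04 averaged 1.17 ± 0.218 in cerebellum, 1.81 ± 0.425 in motor cortex, 1.90 ± 0.310 in frontal cortex, 1.90 ± 0.589 in hippocampus, 1.90 ± 0.382 in entorhinal cortex, 1.96 ± 0.402 in pons, 2.24 ± 0.720 in visual cortex, 2.44 ± 0.571 in prefrontal cortex, 2.82 ± 0.408 in posterior parietal cortex and 3.19 ± 0.421 in basal ganglia (percent, SD, n = 5 each). The same regions stood at either end for p04, with 2 of 5 basal ganglia libraries above all other brain libraries.

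p01 held 2.06% ± 0.702 of the remaining counts in brain (SD, n = 50) and 0.965% ± 1.04 in sperm (SD, n = 5). Sperm shares of p01 were 0.0615, 0.147, 0.613, 1.47 and 2.53% in sheep 687, 699, 688, 694 and 690. By region, p01 averaged 1.10 ± 0.247 in cerebellum, 1.74 ± 0.358 in entorhinal cortex, 1.75 ± 0.630 in hippocampus, 1.79 ± 0.397 in pons, 1.86 ± 0.694 in motor cortex, 1.91 ± 0.237 in frontal cortex, 2.16 ± 0.792 in visual cortex, 2.52 ± 0.545 in prefrontal cortex, 2.704 ± 0.441 in posterior parietal cortex and 3.03 ± 0.294 in basal ganglia (percent, SD, n = 5 each). Sperm of sheep 690 lay inside the brain range of p01 (0.712 to 3.52%), and that of 687, 699 and 688 below it. p08 held 1.77% ± 0.621 of the remaining counts in brain (SD, n = 50) and 0.793% ± 0.809 in sperm (SD, n = 5). Sperm shares of p08 were 0.0413, 0.117, 0.590, 1.27 and 1.95% in sheep 687, 699, 688, 694 and 690. By region, p08 averaged 0.960 ± 0.187 in cerebellum, 1.42 ± 0.280 in entorhinal cortex, 1.43 ± 0.4999 in hippocampus, 1.59 ± 0.614 in motor cortex, 1.61 ± 0.330 in pons, 1.70 ± 0.164 in frontal cortex, 1.77 ± 0.569 in visual cortex, 2.06 ± 0.561 in prefrontal cortex, 2.32 ± 0.331 in posterior parietal cortex and 2.81 ± 0.282 in basal ganglia (percent, SD, n = 5 each). Basal ganglia and posterior parietal cortex were again the upper end for p08, and cerebellum the lower end.

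p12 held 1.51% ± 0.472 of the remaining counts in brain (SD, n = 50) and 0.212% ± 0.217 in sperm (SD, n = 5). Sperm shares of p12 were 0.00992, 0.0236, 0.141, 0.430 and 0.455% in sheep 687, 699, 688, 694 and 690. By region, p12 averaged 0.829 ± 0.172 in cerebellum, 1.23 ± 0.144 in motor cortex, 1.31 ± 0.380 in hippocampus, 1.36 ± 0.268 in entorhinal cortex, 1.39 ± 0.245 in pons, 1.43 ± 0.187 in frontal cortex, 1.62 ± 0.447 in visual cortex, 1.72 ± 0.434 in prefrontal cortex, 2.10 ± 0.281 in posterior parietal cortex and 2.11 ± 0.410 in basal ganglia (percent, SD, n = 5 each). All 5 sperm libraries lay below all 50 brain libraries in p12 (0.535 to 2.63%). It fell in sperm by 1.54 on the log2 scale (SE 0.39, edgeR adjusted p = 4.17e-04). Within class p, p12 took 8.06% ± 0.625 of the counts in brain and 2.38% ± 0.656 in sperm (1.68 to 3.42), a ratio that holds no library total. In that ratio too, all 5 sperm libraries were below all 50 brain libraries.

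p09 held 0.0729% ± 0.0343 of the remaining counts in brain (SD, n = 50) and 0.00739% ± 0.00780 in sperm (SD, n = 5). Sperm shares of p09 were 0.000362, 0.000331, 0.00542, 0.0130 and 0.0178% in sheep 687, 699, 688, 694 and 690. By region, p09 averaged 0.0489 ± 0.0182 in motor cortex, 0.0504 ± 0.0157 in cerebellum, 0.0558 ± 0.0232 in frontal cortex, 0.0586 ± 0.0153 in prefrontal cortex, 0.0590 ± 0.0124 in hippocampus, 0.0762 ± 0.0127 in pons, 0.0775 ± 0.0212 in visual cortex, 0.0803 ± 0.0233 in entorhinal cortex, 0.0975 ± 0.0392 in posterior parietal cortex and 0.124 ± 0.0619 in basal ganglia (percent, SD, n = 5 each). It was the p entry with the fewest counts, and motor cortex stood lowest for it, next to cerebellum. All 5 sperm libraries were below all brain libraries in p09. Its fall in sperm was -1.93 (SE 0.46, edgeR adjusted p = 1.87e-04). In brain it took 0.397% ± 0.142 of class p (0.138 to 0.716) and in sperm 0.0774% (0.0236 to 0.103), again without overlap.

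p10 held 1.10% ± 0.361 of the remaining counts in brain (SD, n = 50) and 0.408% ± 0.400 in sperm (SD, n = 5). Sperm shares of p10 were 0.0460, 0.0942, 0.267, 0.653 and 0.982% in sheep 687, 699, 688, 694 and 690. By region, p10 averaged 0.623 ± 0.119 in cerebellum, 0.909 ± 0.306 in hippocampus, 0.924 ± 0.169 in entorhinal cortex, 0.965 ± 0.214 in pons, 0.983 ± 0.301 in motor cortex, 1.10 ± 0.153 in frontal cortex, 1.13 ± 0.3200 in visual cortex, 1.29 ± 0.296 in prefrontal cortex, 1.46 ± 0.172 in posterior parietal cortex and 1.67 ± 0.238 in basal ganglia (percent, SD, n = 5 each). This pattern matched p08 at its ends, with cerebellum lowest and basal ganglia highest. p13 held 1.09% ± 0.345 of the remaining counts in brain (SD, n = 50) and 0.403% ± 0.418 in sperm (SD, n = 5). Sperm shares of p13 were 0.0204, 0.0578, 0.284, 0.653 and 1.00% in sheep 687, 699, 688, 694 and 690. By region, p13 averaged 0.590 ± 0.118 in cerebellum, 0.928 ± 0.221 in motor cortex, 0.928 ± 0.284 in hippocampus, 0.944 ± 0.179 in entorhinal cortex, 1.03 ± 0.224 in pons, 1.03 ± 0.138 in frontal cortex, 1.17 ± 0.394 in visual cortex, 1.31 ± 0.328 in prefrontal cortex, 1.47 ± 0.207 in basal ganglia and 1.49 ± 0.203 in posterior parietal cortex (percent, SD, n = 5 each). Here posterior parietal cortex and basal ganglia were less than 1 SD apart at the top of p13.

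p03 held 0.779% ± 0.262 of the remaining counts in brain (SD, n = 50) and 0.182% ± 0.172 in sperm (SD, n = 5). Sperm shares of p03 were 0.0176, 0.0255, 0.154, 0.304 and 0.409% in sheep 687, 699, 688, 694 and 690. By region, p03 averaged 0.423 ± 0.119 in cerebellum, 0.606 ± 0.0493 in motor cortex, 0.649 ± 0.184 in frontal cortex, 0.744 ± 0.190 in hippocampus, 0.781 ± 0.179 in pons, 0.798 ± 0.255 in entorhinal cortex, 0.868 ± 0.175 in prefrontal cortex, 0.886 ± 0.332 in visual cortex, 1.00 ± 0.230 in basal ganglia and 1.03 ± 0.271 in posterior parietal cortex (percent, SD, n = 5 each). In p03, 4 of 5 cerebellum libraries were below the other 45 of brain. p05 held 0.424% ± 0.158 of the remaining counts in brain (SD, n = 50) and 0.0961% ± 0.0969 in sperm (SD, n = 5). Sperm shares of p05 were 0.00213, 0.00611, 0.0867, 0.163 and 0.223% in sheep 687, 699, 688, 694 and 690. By region, p05 averaged 0.218 ± 0.0642 in cerebellum, 0.3195 ± 0.0467 in motor cortex, 0.342 ± 0.114 in frontal cortex, 0.391 ± 0.107 in hippocampus, 0.407 ± 0.103 in entorhinal cortex, 0.417 ± 0.106 in pons, 0.490 ± 0.136 in prefrontal cortex, 0.492 ± 0.185 in visual cortex, 0.573 ± 0.163 in posterior parietal cortex and 0.590 ± 0.149 in basal ganglia (percent, SD, n = 5 each). In sperm, p05 was at -0.75 (SE 0.42, edgeR adjusted p = 0.0951) and did not pass. As a part of class p it was 2.25% in brain and 0.964% in sperm.

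p06 held 0.329% ± 0.131 of the remaining counts in brain (SD, n = 50) and 0.0937% ± 0.0917 in sperm (SD, n = 5). Sperm shares of p06 were 0.0125, 0.0279, 0.0472, 0.160 and 0.221% in sheep 687, 699, 688, 694 and 690. By region, p06 averaged 0.180 ± 0.0428 in cerebellum, 0.248 ± 0.0534 in pons, 0.265 ± 0.0508 in entorhinal cortex, 0.277 ± 0.137 in hippocampus, 0.324 ± 0.170 in motor cortex, 0.327 ± 0.124 in visual cortex, 0.338 ± 0.0834 in frontal cortex, 0.423 ± 0.0725 in posterior parietal cortex, 0.436 ± 0.156 in prefrontal cortex and 0.476 ± 0.0869 in basal ganglia (percent, SD, n = 5 each). In p06 the pons stood next to cerebellum at the low end, and sperm of 690 and 694 lay in the brain range. p02 held 0.0743% ± 0.0217 of the remaining counts in brain (SD, n = 50) and 0.0310% ± 0.0290 in sperm (SD, n = 5). Sperm shares of p02 were 0.00431, 0.00717, 0.0202, 0.0544 and 0.0687% in sheep 687, 699, 688, 694 and 690. By region, p02 averaged 0.0469 ± 0.0128 in cerebellum, 0.0600 ± 0.00918 in motor cortex, 0.0664 ± 0.0129 in frontal cortex, 0.0681 ± 0.0206 in hippocampus, 0.0746 ± 0.0199 in entorhinal cortex, 0.0756 ± 0.0224 in pons, 0.0789 ± 0.0263 in visual cortex, 0.0836 ± 0.0163 in prefrontal cortex, 0.0926 ± 0.0193 in basal ganglia and 0.0966 ± 0.0153 in posterior parietal cortex (percent, SD, n = 5 each). The p02 regions spanned a narrower range than those of p09, though both were low in counts.

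Class t was almost entirely 1 entry, since t22 had 4690645 of its counts over the 55 libraries, or 94.96%. t22 held 0.176% ± 0.0560 of the remaining counts in brain (SD, n = 50) and 0.0670% ± 0.0762 in sperm (SD, n = 5). Sperm shares of t22 were 0.00410, 0.00617, 0.0483, 0.0882 and 0.189% in sheep 687, 699, 688, 694 and 690. By region, t22 averaged 0.107 ± 0.0273 in cerebellum, 0.137 ± 0.0293 in motor cortex, 0.152 ± 0.0536 in hippocampus, 0.154 ± 0.0315 in entorhinal cortex, 0.166 ± 0.0307 in frontal cortex, 0.167 ± 0.0532 in pons, 0.190 ± 0.0509 in visual cortex, 0.204 ± 0.0304 in prefrontal cortex, 0.234 ± 0.0360 in posterior parietal cortex and 0.248 ± 0.0557 in basal ganglia (percent, SD, n = 5 each). As in class p, cerebellum was lowest and basal ganglia and posterior parietal cortex were the highest. In sperm t22 was at -0.0049 on the log2 TMM scale and did not pass (SE 0.36, edgeR adjusted p = 0.992).

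The other t entries were far scarcer and are given per 1000000 remaining counts, as mean ± SD over libraries (n = 50 in brain, 5 in sperm and in each region). t10 stood at 19.4 ± 7.71 per 1000000 in brain and at 10.8 ± 6.58 in sperm, with region means of 12.6 ± 3.61 in basal ganglia, 12.8 ± 3.29 in cerebellum, 15.6 ± 2.54 in motor cortex, 17.4 ± 4.88 in frontal cortex, 18.3 ± 6.29 in entorhinal cortex, 18.8 ± 4.87 in pons, 20.2 ± 5.49 in hippocampus, 23.7 ± 7.35 in prefrontal cortex, 24.3 ± 8.74 in visual cortex and 30.0 ± 10.9 in posterior parietal cortex. t09 stood at 9.30 ± 3.27 per 1000000 in brain and at 14.6 ± 11.1 in sperm, with region means of 5.84 ± 0.942 in cerebellum, 6.86 ± 1.62 in basal ganglia, 8.18 ± 1.77 in motor cortex, 8.22 ± 2.47 in entorhinal cortex, 8.23 ± 1.45 in frontal cortex, 10.1 ± 2.90 in hippocampus, 10.1 ± 3.27 in pons, 10.8 ± 4.12 in visual cortex, 11.3 ± 2.78 in prefrontal cortex and 13.3 ± 3.89 in posterior parietal cortex. t11 stood at 2.43 ± 1.00 per 1000000 in brain and at 0.690 ± 0.685 in sperm, with region means of 1.52 ± 0.519 in cerebellum, 1.68 ± 0.854 in basal ganglia, 2.07 ± 0.534 in motor cortex, 2.13 ± 0.928 in entorhinal cortex, 2.21 ± 0.696 in frontal cortex, 2.29 ± 0.766 in pons, 2.59 ± 0.729 in hippocampus, 2.93 ± 1.15 in visual cortex, 3.22 ± 0.881 in prefrontal cortex and 3.68 ± 1.12 in posterior parietal cortex. Entries t09, t10 and t11 occupy adjacent rows of the table, 31280 to 31282, and row 31283 holds p11. All 3 were lowest in cerebellum or basal ganglia and highest in posterior parietal cortex.

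Among these 3, t09 was called in sperm. It rose by 1.85 on the log2 scale (SE 0.22, edgeR adjusted p = 8.98e-11), and t10 and t11 were at 0.37 and -0.48 without passing. On plain library totals t09 was at -0.47 and t10 at -1.94, so the direction of t09 depends on the scaling.

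t03 stood at 18.6 ± 7.94 per 1000000 in brain and at 1.86 ± 2.11 in sperm, with region means of 10.7 ± 5.64 in cerebellum, 16.0 ± 6.02 in motor cortex, 16.1 ± 4.67 in pons, 16.6 ± 5.23 in frontal cortex, 17.1 ± 5.05 in entorhinal cortex, 17.3 ± 5.25 in hippocampus, 20.1 ± 2.33 in prefrontal cortex, 20.9 ± 7.67 in basal ganglia, 22.1 ± 12.6 in visual cortex and 29.0 ± 10.7 in posterior parietal cortex. t14 stood at 15.4 ± 5.38 per 1000000 in brain and at 0.244 ± 0.354 in sperm, with region means of 7.95 ± 2.59 in cerebellum, 13.8 ± 5.34 in frontal cortex, 14.3 ± 7.05 in motor cortex, 15.3 ± 5.54 in pons, 15.6 ± 4.09 in entorhinal cortex, 16.3 ± 4.79 in visual cortex, 16.7 ± 2.86 in prefrontal cortex, 17.9 ± 5.32 in hippocampus, 18.0 ± 4.50 in basal ganglia and 18.2 ± 6.18 in posterior parietal cortex. t16 stood at 8.12 ± 3.38 per 1000000 in brain and at 0.270 ± 0.314 in sperm, with region means of 4.55 ± 2.35 in cerebellum, 6.34 ± 2.00 in motor cortex, 6.64 ± 1.83 in pons, 7.15 ± 2.38 in frontal cortex, 7.65 ± 2.46 in entorhinal cortex, 8.57 ± 2.81 in hippocampus, 8.90 ± 2.44 in prefrontal cortex, 9.86 ± 3.18 in basal ganglia, 10.1 ± 4.74 in visual cortex and 11.4 ± 4.60 in posterior parietal cortex. These 3 entries were all lower in sperm. Their log2 changes were -2.36 for t03 (SE 0.42, edgeR adjusted p = 1.70e-06), -4.49 for t14 (SE 0.49, edgeR adjusted p = 7.79e-12) and -3.92 for t16 (SE 0.47, edgeR adjusted p = 1.47e-10). Sperm held 100, 22 and 16 counts of them in all, summed over its 5 libraries.

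t15 stood at 4.96 ± 2.03 per 1000000 in brain and at 0.292 ± 0.455 in sperm, with region means of 1.62 ± 0.562 in cerebellum, 3.81 ± 1.35 in pons, 4.14 ± 0.676 in motor cortex, 5.04 ± 1.76 in visual cortex, 5.06 ± 1.58 in frontal cortex, 5.18 ± 1.30 in prefrontal cortex, 5.39 ± 2.02 in entorhinal cortex, 5.48 ± 2.41 in hippocampus, 6.32 ± 0.898 in posterior parietal cortex and 7.52 ± 1.58 in basal ganglia. t12 stood at 3.39 ± 1.61 per 1000000 in brain and at 0.822 ± 0.715 in sperm, with region means of 1.95 ± 0.896 in pons, 2.55 ± 0.587 in motor cortex, 2.67 ± 1.36 in cerebellum, 2.89 ± 1.04 in hippocampus, 2.93 ± 1.45 in entorhinal cortex, 3.05 ± 0.764 in prefrontal cortex, 3.57 ± 1.52 in visual cortex, 3.69 ± 1.80 in frontal cortex, 4.88 ± 1.68 in posterior parietal cortex and 5.74 ± 1.42 in basal ganglia. t06 stood at 2.33 ± 1.45 per 1000000 in brain and at 0.0875 ± 0.114 in sperm, with region means of 1.03 ± 0.814 in cerebellum, 1.05 ± 0.642 in pons, 1.95 ± 1.03 in hippocampus, 1.98 ± 0.717 in motor cortex, 2.01 ± 1.04 in entorhinal cortex, 2.49 ± 1.26 in frontal cortex, 2.74 ± 1.38 in basal ganglia, 2.87 ± 0.819 in prefrontal cortex, 3.04 ± 1.96 in visual cortex and 4.09 ± 2.08 in posterior parietal cortex. In t15 the cerebellum was far below every other region. The log2 change in sperm was -3.25 for t15 (SE 0.46, edgeR adjusted p = 1.16e-08) and -3.74 for t06 (SE 0.67, edgeR adjusted p = 1.49e-06), while t12, at -0.99, missed the fold threshold.

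t21 stood at 2.06 ± 1.30 per 1000000 in brain and at 0.0105 ± 0.0234 in sperm, with region means of 0.518 ± 0.356 in cerebellum, 0.814 ± 0.315 in pons, 1.48 ± 0.486 in motor cortex, 1.69 ± 0.638 in entorhinal cortex, 1.73 ± 0.742 in frontal cortex, 2.50 ± 1.65 in hippocampus, 2.56 ± 1.62 in visual cortex, 2.69 ± 0.808 in prefrontal cortex, 2.71 ± 1.08 in posterior parietal cortex and 3.86 ± 1.01 in basal ganglia. t04 stood at 1.63 ± 1.15 per 1000000 in brain and at 0.120 ± 0.268 in sperm, with region means of 0.480 ± 0.276 in pons, 0.915 ± 0.742 in cerebellum, 1.38 ± 0.590 in hippocampus, 1.40 ± 1.01 in entorhinal cortex, 1.40 ± 0.619 in motor cortex, 1.76 ± 0.772 in frontal cortex, 1.79 ± 0.662 in prefrontal cortex, 2.14 ± 1.51 in basal ganglia, 2.37 ± 1.83 in visual cortex and 2.71 ± 1.45 in posterior parietal cortex. t20 stood at 0.252 ± 0.118 per 1000000 in brain and at 0.0533 ± 0.0667 in sperm, with region means of 0.159 ± 0.0275 in frontal cortex, 0.203 ± 0.112 in pons, 0.208 ± 0.0667 in prefrontal cortex, 0.226 ± 0.149 in motor cortex, 0.238 ± 0.0619 in hippocampus, 0.253 ± 0.126 in cerebellum, 0.272 ± 0.101 in visual cortex, 0.272 ± 0.122 in entorhinal cortex, 0.327 ± 0.135 in posterior parietal cortex and 0.361 ± 0.166 in basal ganglia. Pons and cerebellum were lowest in t21 and t04, and t20 was scarce everywhere, with 3 counts in all of sperm. In sperm t21 was at -4.84 (SE 0.71, edgeR adjusted p = 2.47e-08) on 2 counts, and t04 at -2.76 (SE 0.72, edgeR adjusted p = 5.06e-04) on 7.

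t13 stood at 1.54 ± 0.911 per 1000000 in brain and at 0 in every sperm library, with region means of 0.532 ± 0.236 in pons, 0.627 ± 0.293 in cerebellum, 1.33 ± 0.354 in hippocampus, 1.38 ± 0.438 in motor cortex, 1.45 ± 0.957 in entorhinal cortex, 1.76 ± 1.19 in frontal cortex, 1.80 ± 0.941 in visual cortex, 1.83 ± 0.606 in prefrontal cortex, 2.14 ± 0.788 in posterior parietal cortex and 2.56 ± 1.04 in basal ganglia. t05 stood at 1.52 ± 0.925 per 1000000 in brain and at 0 in every sperm library, with region means of 0.733 ± 0.387 in pons, 1.05 ± 0.573 in cerebellum, 1.13 ± 0.484 in hippocampus, 1.19 ± 0.531 in motor cortex, 1.47 ± 0.581 in prefrontal cortex, 1.500 ± 0.804 in entorhinal cortex, 1.504 ± 0.663 in frontal cortex, 2.02 ± 1.57 in visual cortex, 2.05 ± 0.793 in basal ganglia and 2.53 ± 1.29 in posterior parietal cortex. t02 stood at 1.29 ± 0.855 per 1000000 in brain and at 0 in every sperm library, with region means of 0.586 ± 0.452 in cerebellum, 0.860 ± 0.315 in entorhinal cortex, 0.900 ± 0.552 in frontal cortex, 1.04 ± 0.448 in pons, 1.12 ± 0.642 in motor cortex, 1.57 ± 0.629 in prefrontal cortex, 1.63 ± 1.33 in visual cortex, 1.71 ± 1.09 in posterior parietal cortex, 1.72 ± 1.20 in hippocampus and 1.77 ± 0.895 in basal ganglia. These 3 entries and t07 and t08 had 0 counts in any sperm library. Set against a floor of 3 counts over all 5 sperm libraries together, or 0.0146 per 1000000 of all counts, they were lower in sperm by at least 97.5-fold for t13, at least 96.1-fold for t05 and at least 81.2-fold for t02.

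t07 stood at 0.487 ± 0.293 per 1000000 in brain and at 0 in every sperm library, with region means of 0.152 ± 0.121 in cerebellum, 0.173 ± 0.0553 in pons, 0.435 ± 0.188 in motor cortex, 0.452 ± 0.252 in entorhinal cortex, 0.453 ± 0.259 in frontal cortex, 0.536 ± 0.260 in hippocampus, 0.566 ± 0.187 in prefrontal cortex, 0.629 ± 0.182 in visual cortex, 0.727 ± 0.367 in basal ganglia and 0.745 ± 0.368 in posterior parietal cortex. t08 stood at 0.326 ± 0.193 per 1000000 in brain and at 0 in every sperm library, with region means of 0.108 ± 0.0680 in pons, 0.160 ± 0.0643 in cerebellum, 0.225 ± 0.0469 in motor cortex, 0.311 ± 0.198 in frontal cortex, 0.319 ± 0.217 in prefrontal cortex, 0.333 ± 0.143 in hippocampus, 0.339 ± 0.182 in entorhinal cortex, 0.385 ± 0.247 in visual cortex, 0.521 ± 0.0965 in posterior parietal cortex and 0.560 ± 0.0902 in basal ganglia. On the same floor t07 was at least 30.8-fold and t08 at least 20.6-fold lower in sperm. On the TMM scale the 5 bounds were between 3.61-fold for t08 and 17.1-fold for t13. The remaining 4 entries were too scarce to compare, with 1 count of t18, 11 of t01, 76 of t17 and 90 of t19 over all libraries, all of them in brain.

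Brain regions differed in the mitochondrial share. A permutation test of the F statistic across the 10 regions (100000 draws, smallest possible p 1e-05) gave p = 1e-05 for all members, 3e-05 for class p, 1e-05 for class r, 2.10e-04 for class t and 7.50e-04 for the r to p ratio, on shares of all counts. The LOC entries (permutation p = 0.831) and the t to p ratio (permutation p = 0.695) did not pass. Across the 50 brain libraries the LOC share and the class p share had a Pearson correlation of -0.042, given as a description.

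Cerebellum stood lowest. Its class p share of the remaining counts was 10.4, 12.0, 12.6, 7.35 and 10.7% in sheep 687, 688, 690, 694 and 699, and its class r share was 0.436, 0.523, 0.657, 0.359 and 0.525%. In class r, 4 of these 5 libraries were below all other 45 brain libraries, and in class p 3 of the 45 were below the highest cerebellum library. Against the mean of the other 9 regions, class p was 1.80-fold lower as a share of all counts (log2 -0.85, exact permutation of 5 against 45 libraries p = 5.85e-05, adjusted over 70 tests 0.00137). Class r was 2.28-fold lower (-1.19, exact permutation p = 9.44e-07, adjusted 6.61e-05) and class t 1.67-fold lower (-0.74, exact permutation p = 5.43e-04, adjusted 0.00951). All 5 sheep had the lower value in cerebellum in each class. Class t without sheep 694 was at -0.59 and no longer passed (exact permutation adjusted p = 0.161). On remaining counts the folds were 1.84 for all members and 2.31 for class r.

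In the edgeR fit of the 50 brain libraries, called at an adjusted p below 0.05 with no minimum fold, 30 of the 33 tested members were lower in cerebellum and 0 higher, against a background of 31.6% of all 21147 genes lower and 29.1% higher. With a minimum change of 2-fold 22 members were lower, against 19.5% of all genes lower and 9.35% higher. All 13 p entries fell, with a median log2 change of -1.12 between -0.71 for p09 and -1.21 for p05. Both r entries fell, r01 by 1.42 (SE 0.21, edgeR adjusted p = 1.44e-07) and r02 by 1.43 (SE 0.24, edgeR adjusted p = 2.09e-06). Of the 18 t entries 15 fell, most in t21 (-2.17), t15 (-1.90) and t07 (-1.87), and t05, t12 and t20 did not pass. On plain library totals 28 members were lower, among them 12 of the 13 p entries, and the median over all genes was 0.18. Only 9 were lower there with a minimum change of 2-fold, with 0 of the p entries, so the 2-fold count depends on the scaling. The neuron list was at 5257 CPM in cerebellum (4930 to 5425) against a brain mean of 3120, and the microglia list at 51.5 against 205. The oligodendrocyte list was at 5068 CPM (1525 to 9394) against 11470, and the astrocyte list at 7524 against 8650. By edgeR 5 of 6 neuron markers were higher, and 5 of 5 microglia and 4 of 6 oligodendrocyte markers lower. Of the 6 astrocyte markers 1 was higher and 2 lower. The part of such differences in cell types was not tested.

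Basal ganglia and posterior parietal cortex stood highest. In basal ganglia the class p share of the remaining counts was 30.0, 26.4, 24.9, 25.2 and 21.1% in sheep 687, 688, 690, 694 and 699, with a mean of 25.5%. In posterior parietal cortex it was 24.4, 20.5, 25.0, 30.1 and 27.5%, also with a mean of 25.5%. Both ranges overlapped with those of other regions. In the exact permutation test on shares of all counts, all members were at 0.53 in basal ganglia (exact permutation adjusted p = 0.097) and 0.56 in posterior parietal cortex (exact permutation adjusted p = 0.087), so neither passed. Posterior parietal cortex was higher in 5 of 5 sheep and basal ganglia in 4 of 5, with sheep 699 as the exception. Basal ganglia passed against TMM-scaled library sizes (0.77, exact permutation adjusted p = 0.0323), and posterior parietal cortex passed as a difference of 7.46 percentage points (exact permutation adjusted p = 0.0448).

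The edgeR fit called 22 members higher in basal ganglia, against 14.6% of all genes higher and 13.0% lower: 12 of 13 p entries, both r entries and 8 of 18 t entries. The largest p changes were p09 (1.15, SE 0.21, edgeR adjusted p = 2.53e-05) and p08 (1.01, SE 0.18, edgeR adjusted p = 1.92e-05), and the largest t change was t21 (1.46, SE 0.27, edgeR adjusted p = 4.67e-05). The p entry outside the call was p11 (0.33, SE 0.18, edgeR adjusted p = 0.188). Entries t09, t10 and t11 were at -0.23, -0.43 and -0.33 there, with 0 of the 3 past the threshold. With a minimum change of 2-fold 7 members were higher, against 5.54% of all genes higher and 4.75% lower. On plain library totals 18 members were higher and 1 lower, with 0 of the 2 r entries called, and the median over all genes was -0.24. Only 2 members were higher there with a minimum change of 2-fold, so these calls depend on the scaling. With the sheep as a term in the edgeR model 28 members were called higher. In the same contrast 2 of 6 neuron markers and 3 of 6 astrocyte markers were called lower and 2 of 5 microglia markers higher. The neuron list summed to 1900 CPM (1517 to 2492) in basal ganglia against a brain mean of 3120, the astrocyte list to 4471 (2272 to 7123) against 8650, and the microglia list to 231 (115 to 379) against 205. The part of these marker differences was not tested.

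In posterior parietal cortex 27 members were called higher by edgeR, against 7.99% of all genes higher and 2.42% lower, among them 12 of 13 p entries, both r entries and 13 of 18 t entries. Changes of the p entries lay between 0.60 for p06, which did not pass, and 0.77 for p11 (SE 0.18, edgeR adjusted p = 0.00306). r01 rose by 0.77 (SE 0.17, edgeR adjusted p = 0.00259) and t10 by 0.92 (SE 0.20, edgeR adjusted p = 0.00154). This result rested on sheep 694, since without that animal 0 members were called. Without sheep 690 there were 16, without 699 there were 17, and plain library totals gave 17. Of the microglia markers 4 of 5 were called higher in the same contrast, with a list median of 0.82, and they summed to 282 CPM ± 74.9 against a brain mean of 205 ± 98.8. Of the neuron and oligodendrocyte markers 0 of 6 passed each, and of the astrocyte markers 1 of 6 was higher. The part of these marker differences was not tested.

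**Figure D4:**
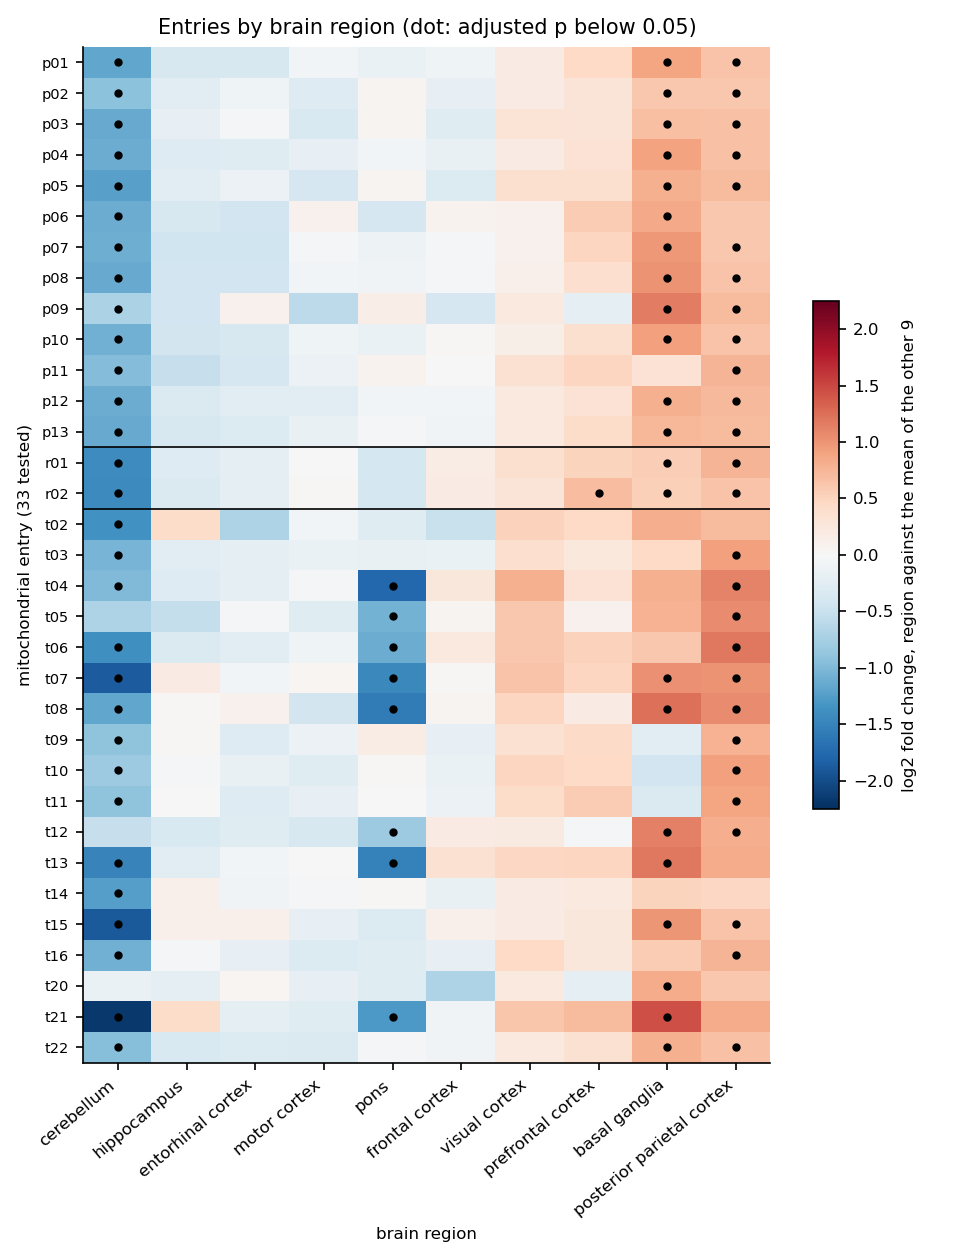
Fitted log2 fold change of the 33 tested mitochondrial entries (rows) in each of 10 brain regions against the mean of the other 9 (columns), with a dot where the edgeR adjusted p is below 0.05. Cerebellum has 30 dots with lower values, basal ganglia 22 and posterior parietal cortex 27 with higher values, and pons 8, all t entries.

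In pons, edgeR called 8 of the 33 tested members lower and 0 higher, a lower share close to that of all genes (22.6% lower and 25.7% higher). All 8 were among the 18 tested t entries, and 0 were p or r entries. They were t04 (-1.77), t08 (-1.58), t13 (-1.53), t07 (-1.46), t21 (-1.29), t06 (-1.11), t05 (-1.06) and t12 (-0.82). Relative to class p, these 8 entries summed to 19.7, 28.0, 44.4, 40.2 and 34.0 per 1000000 class p counts in sheep 687, 688, 690, 694 and 699, a mean of 33.3 ± 9.82 against 74.3 ± 26.8 in the other 45 brain libraries. This sum was put together after the calls were seen and is given as a description. With a minimum change of 2-fold 7 of the 8 stayed, against 9.02% of all genes lower and 9.66% higher. The oligodendrocyte list was at 51610 CPM in pons (21600 to 94360) and at 11470 over all brain libraries. The astrocyte list was at 18820 CPM against 8650, the neuron list at 2431 (548 to 4423) against 3120, and the microglia list at 217 against 205. By edgeR 6 of 6 oligodendrocyte markers were higher. Of the astrocyte markers 3 were higher and 2 lower, of the neuron markers 1 higher and 4 lower, and of the microglia markers 1 higher. The part of these differences was not tested.

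The r to p ratio was 4.71% in cerebellum and 4.92% in pons, the lowest region means, and 6.77% in frontal cortex. In pons it was 3.60, 3.87, 4.49, 6.30 and 6.33% in sheep 687, 688, 690, 694 and 699, so that the animals fell on both sides of the brain mean of 5.90%. Neither region passed (cerebellum log2 -0.34, exact permutation adjusted p = 0.062; pons -0.31, exact permutation adjusted p = 0.087), although pons without sheep 699 did (-0.43, exact permutation adjusted p = 0.039).

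The other regions held few calls. In prefrontal cortex edgeR called r02 higher (0.69, adjusted p = 0.0262) and 0 others, against 4.31% of all genes higher. That call was absent without sheep 687, 688, 690 or 694 in turn, and without 699 there were 3. With the sheep as a term there were 4. In entorhinal, frontal, motor and visual cortex and hippocampus edgeR called 0 members in either direction. Genes higher and lower were 3.20% and 0.161% of all in entorhinal cortex, 5.73% and 2.12% in frontal cortex, 7.15% and 3.83% in hippocampus, 2.93% and 0.619% in motor cortex, and 4.71% and 0.946% in visual cortex. At an unadjusted edgeR p under 0.05, visual cortex had 3 members higher, hippocampus 4 lower, and entorhinal, frontal and motor cortex 1 lower each. By limma voom 5 members were lower in hippocampus and 3 higher in visual cortex, and by DESeq2 1 was lower in hippocampus.

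The proportions within class p were examined without library totals. p11 took 28.2% ± 2.99 of class p counts in brain. In basal ganglia it took 20.3, 22.6, 21.8, 25.6 and 17.5% in sheep 687, 688, 690, 694 and 699. The mean there was 21.6% ± 3.01, against 29.0% ± 1.88 (24.2 to 32.2) in the other 45 brain libraries, and 4 of 5 basal ganglia libraries lay below all of them. In sperm p11 took 29.7, 40.1, 34.6, 35.8 and 36.7% in the same order of animals. These proportions were picked after the entry values were seen and carry no test.

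The sum of t09, t10 and t11 was also low in basal ganglia when set against class p. It was 68.1, 84.0, 115, 86.4 and 58.8 per 1000000 class p counts in basal ganglia of sheep 687, 688, 690, 694 and 699 (mean 82.5 ± 21.6). The other 45 brain libraries averaged 180 ± 37.4. In sperm it was 1901, 225, 276, 299 and 1319 per 1000000. Relative to class p, basal ganglia were thus low for p11 and for the 3 t entries in the rows before it, and sperm of 687 and 699 were high for the t entries. As a share of the remaining counts, the mean of p11 in basal ganglia was above its brain mean.

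**Figure D5:**
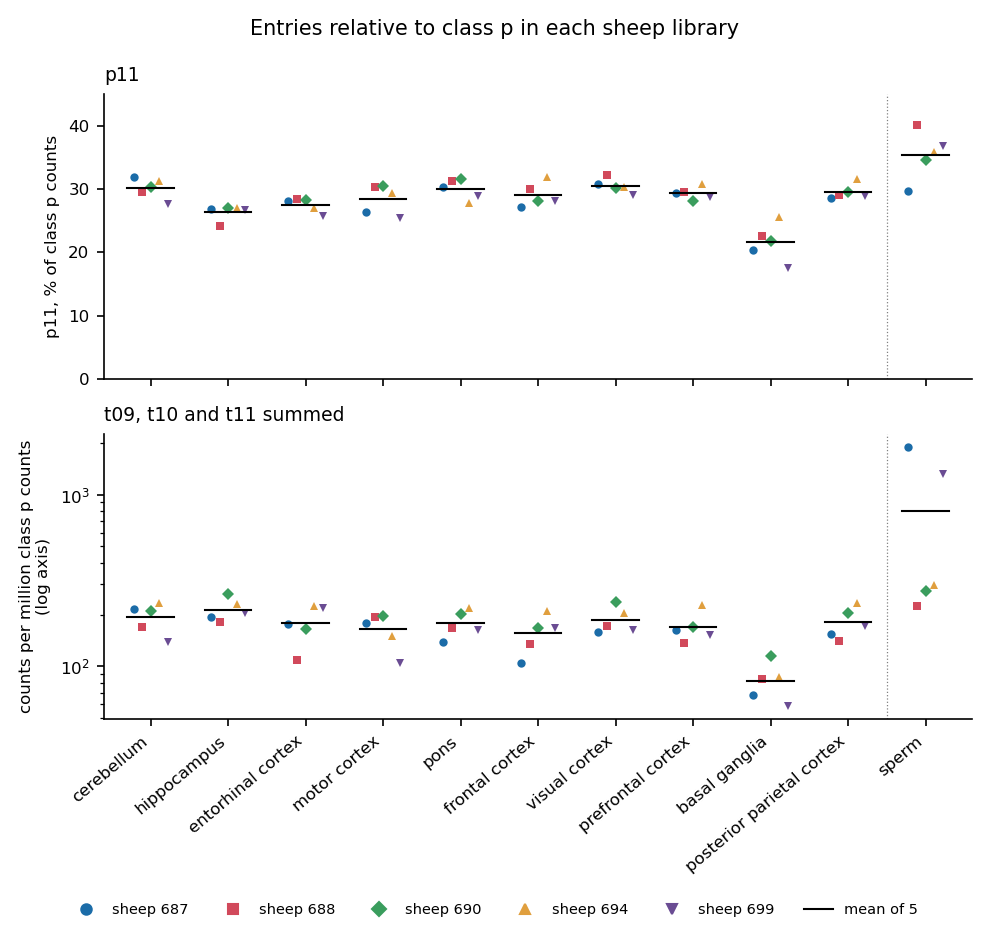
The top panel gives p11 as percent of class p counts in every library by tissue. The bottom panel gives t09, t10 and t11 summed per 1000000 class p counts (log axis). Colours and markers give the 5 sheep. Basal ganglia average 21.6% and 82.5 per 1000000, below the 29.0% and 180 per 1000000 of the other brain libraries.

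Across the 50 brain libraries the p entries moved together in log2 CPM, which as a description gave a median Pearson correlation of 0.876 over 78 pairs, sharing library and depth. The entry that moved least with the others was p09, at a mean of 0.545, and the 66 pairs without it had a median of 0.896. The pair r01 and r02 had 0.925, r01 with the p entries a mean of 0.810, and t22 with the p entries a mean of 0.872. With every entry set against class p counts, t09, t10 and t11 had their highest correlation with a p entry for p11, at 0.587, 0.704 and 0.656. Both sides of each such correlation share the class p denominator, and basal ganglia were low on both. Whether the levels themselves moved together was not tested.

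The nuclear genome supplies the other subunits of the respiratory chain. Of a list of 76 such genes, 59 were in the table, and complexes III and IV were sparse in it (1 of 9 and 1 of 10). In sperm 2 were higher and 45 lower, against 33.1% of all genes higher and 41.1% lower, with a median log2 change of -1.94 against -0.42 over all genes. On plain library totals 0 were higher and 58 lower, with a median of -4.32 against -2.84 over all genes. The CPM of nuclear genes named here and below were computed on TMM-scaled library sizes, not on plain totals. In sperm, where the TMM factors were low, they stand above plain CPM. NDUFA4 stood at 1.91 CPM in sperm ± 0.719 and 119 ± 29.8 in brain (-5.88, edgeR adjusted p = 2.09e-26), and SDHA, a subunit of complex II, at 3.12 ± 1.06 and 122 ± 24.4 (-5.24, edgeR adjusted p = 2.51e-28). The 2 higher genes were ATP5ME of ATP synthase, at 153 CPM ± 80.4 in sperm and 49.7 ± 15.6 in brain (1.64, edgeR adjusted p = 1.01e-11), and NDUFB7 of complex I (1.05, edgeR adjusted p = 3.13e-07). On plain library totals both were negative (-0.98 and -1.53).

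In cerebellum, where 30 mitochondrial entries fell, 8 of the 59 nuclear respiratory chain genes rose and 2 fell, against 29.1% of all genes higher and 31.6% lower. Plain library totals gave 31 higher and 0 lower, with a median over all genes of 0.18. UQCRH of complex III was at 197 CPM ± 33.3 against 127 ± 32.5 in the other regions (0.66, edgeR adjusted p = 4.02e-05) and NDUFV3 of complex I at 46.4 ± 5.05 against 33.9 ± 7.87 (0.46, edgeR adjusted p = 8.39e-04). NDUFA7 (-0.47, edgeR adjusted p = 0.0102) and NDUFB9 (-0.41, edgeR adjusted p = 0.0206) were the 2 that fell. The list's median was 0.03, against -1.12 for class p. In pons 16 of the 59 fell and 0 rose, against 22.6% of all genes lower and 25.7% higher, led by NDUFC1 (-0.55, edgeR adjusted p = 4.46e-08) and NDUFA5 (-0.54, edgeR adjusted p = 6.86e-05), and plain library totals gave 22 lower. In hippocampus 11 fell, against 3.83% of all genes lower, led by NDUFB9 (-0.59, edgeR adjusted p = 0.0103), but on plain library totals only 2 did.

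In basal ganglia 2 of the 59 rose and 0 fell, against 14.6% of all genes higher and 13.0% lower. The 2 were NDUFB4 (0.70, edgeR adjusted p = 7.82e-04) and NDUFB5 (0.25, edgeR adjusted p = 0.0366). Plain library totals gave 1 higher and 7 lower, with a median over all genes of -0.24. Motor cortex had 3 higher, with NDUFA9 (0.46, edgeR adjusted p = 0.0173) and NDUFB5 (0.34, edgeR adjusted p = 0.0220) the largest, posterior parietal cortex 1 (NDUFC1, 0.27, edgeR adjusted p = 0.00809), and entorhinal cortex 1 lower (ATP5MG, -0.38, edgeR adjusted p = 0.0246). In frontal, prefrontal and visual cortex 0 passed.

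Another list held 61 nuclear genes for the transcription, RNA handling and transfer RNA charging of mitochondria, of which 56 were tested. In sperm 3 were higher and 43 lower, against 33.1% of all genes higher and 41.1% lower, with a median of -2.10 against -0.42 over all genes. Plain library totals gave 0 higher and 55 lower, with a median over all genes of -2.84. TRNT1, which adds the CCA end to transfer RNAs, was at 0.584 CPM ± 0.728 in sperm and 25.5 ± 4.11 in brain (-5.43, edgeR adjusted p = 1.61e-21), and LRPPRC, which stabilises mitochondrial messenger RNAs, at 2.07 ± 1.46 and 63.2 ± 13.5 (-4.91, edgeR adjusted p = 6.99e-20). Higher in sperm were NSUN4 (2.13, edgeR adjusted p = 4.38e-12) and FARS2 (1.35, edgeR adjusted p = 7.11e-08), which without the sperm of 687 and 699 were at -0.19 and -0.34.

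In cerebellum 20 of the 56 rose and 6 fell, against 29.1% of all genes higher and 31.6% lower. Plain library totals gave 36 higher and 1 lower, with a median over all genes of 0.18. TWNK, the mitochondrial DNA helicase, was at 15.9 CPM ± 1.32 against 8.97 ± 0.963 elsewhere in brain (0.82, edgeR adjusted p = 3.15e-13), and PUS1, a pseudouridine synthase, at 23.0 ± 2.91 against 12.1 ± 3.22 (0.93, edgeR adjusted p = 4.91e-07). CARS2, the mitochondrial cysteinyl-tRNA synthetase, fell (-0.62, edgeR adjusted p = 9.68e-07), as did SLIRP (-0.39, edgeR adjusted p = 0.0231). In pons 13 rose and 13 fell, shares near those of all genes (25.7% higher and 22.6% lower), with NARS2 (0.61, edgeR adjusted p = 1.59e-09) and MTERF1 (0.56, edgeR adjusted p = 4.67e-05) higher and CARS2 (-0.53, edgeR adjusted p = 2.00e-05) and MRM3 (-0.51, edgeR adjusted p = 2.29e-04) lower.

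Basal ganglia had 7 of these genes higher and 4 lower, against 14.6% of all genes higher and 13.0% lower. The count went the other way on plain library totals, with 4 higher and 20 lower, where the median over all genes was -0.24. The TMM fit had LARS2 (0.60, edgeR adjusted p = 2.25e-06) and MRM3 (0.59, edgeR adjusted p = 9.86e-06) higher and PUS1 (-0.51, edgeR adjusted p = 0.0188) and CARS2 (-0.46, edgeR adjusted p = 2.66e-04) lower. Hippocampus had 2 lower, motor and frontal cortex 2 higher each, prefrontal cortex 1 higher, and entorhinal and visual cortex 0. Posterior parietal cortex had 1 in each direction (1 higher and 6 lower on plain totals, where the median over all genes was -0.14). The values of members and of these nuclear genes are set side by side here, and a difference between them was not tested.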

How the data were processed

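The deposited values were raw read counts per annotated entry for 55 sheep libraries, used as deposited, and rat libraries were not analysed here. Per the series' design text, RNA was extracted with TRIzol and treated with DNase I, libraries were made with a stranded mRNA kit and sequenced as paired-end reads, and reads were trimmed with Trimmomatic 0.39, aligned with STAR 2.7.5a to ARS-UI_Ramb v3.0 and counted with Rsubread 2.20.0. How the authors' counting treated strand, reads that map to several places and reads on overlapping entries is not given in the sources used here, which could change counts of short or neighbouring entries. The submitters' processing notes also name DESeq2.

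Members were the 37 entries whose names start with KEF53, and named genes followed a rule: every p and r entry, the t entries with the 3 highest means or the 3 most extreme fold changes in a comparison, and, from each pathway list and comparison, up to 2 genes a direction that reach 10 CPM on average in whichever group is higher. The CPM of that rule were TMM-scaled. The members and lists were chosen with earlier results of these data known.

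Shares were tested on the log2 scale by exact permutation (5 against 5, or 5 against 45 libraries) and by a permutation F test with 100000 draws, adjusted by Benjamini-Hochberg over 7 and 70 tests. All genes were fitted with edgeR 4.0.16 in R 4.3.3 (TMM, quasi-likelihood test, prior count 0.125, low-count filter by group) as sperm against the mean of 10 regions in 55 libraries and each region against the mean of the other 9 in 50. DESeq2 1.42.0 and limma 3.58.1 served as alternatives, together with other scaling factors, no filter, leaving out each sheep and a term for the sheep. The edgeR script was tested on simulated data. Shares and figures used Python 3.11.15 with numpy 2.4.6, scipy 1.17.1 and matplotlib 3.10.9.

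Libraries of a number came from the same animal, which pairs them: deviations from tissue means correlated at 0.173 on average within an animal (-0.379 to 0.687) and at -0.0433 between animals, over 20149 entries. There were 0 pairs of libraries with identical counts. The 5 animals are separate, and the share test of sperm against brain used the brain mean of each animal. It took the sperm and brain values as separate groups and did not use their pairing by animal. Its p-values therefore rest on the spread between sheep within sperm and within brain. The form with labels moved within each sheep was the alternative. The region tests and the main edgeR fits had no term for the sheep and took every library as separate. Their p-values measure the spread between libraries, of which several came from the same animal. Counts per library were 13.7 to 72.4 M, where M is 1000000.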

Additional observations from a re-analysis of the deposited data

Results flagged for a closer look

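Each tissue's 5 libraries were examined for 1 value far from the other 4, over 77 groups of values, and chance flags about 1 in 20 such groups. In prefrontal cortex, class r took 2.007% of all counts in sheep 687, while the nearest of the other 4 animals stood at 1.251%. That animal's class p share of the remaining counts was also the highest of its region, at 31.5%. In basal ganglia, the 4 LOC entries took 14.63% of all counts in sheep 699, and the nearest other animal was at 7.414%. In frontal cortex, the same entries took 4.539% in sheep 694, below the nearest value of 6.452%.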

How the results depend on the processing

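The sperm difference in shares changed with the denominator. Without the LOC entries it was -1.58 for all members, -2.18 for class p and -2.42 for class t, and against TMM-scaled library sizes -0.47, -1.07 and -1.31, none of which passed. Class r turned to 2.05 against TMM-scaled sizes. With the sheep as a replicate block, the t to p ratio, at -0.25, passed (within-sheep permutation adjusted p = 0.00217), and the block changed no other share call. In the edgeR fits the sheep term moved the calls in prefrontal cortex from 1 to 4 and no other region count by over 1.5 times. Leaving out each sheep gave -3.56 to -2.16 for all members, -4.25 to -2.55 for class p, -0.85 to 0.11 for class r, -4.53 to -2.90 for class t and 2.66 to 3.41 for the r to p ratio.

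Members called higher in sperm numbered 7 with upper quartile factors, 0 on plain library totals and 5 without the sperm of 687 and 699. Those called lower numbered 30 on plain totals and 5 with voom, and 14 to 19 when each sheep was left out. Summed over the 10 regions, higher calls were 12 with a minimum fold of 2 and 19 to 45 when each sheep was left out, with 19 without sheep 694.

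On plain totals these sperm values turned negative: t09 -0.47, t10 -1.94, p11 -1.79, p08 -2.04, p07 -1.88, p02 -2.23, p01 -1.997, ATP5ME -0.98, NDUFB7 -1.53, NSUN4 -0.70 and FARS2 -1.45. Without the sperm of 687 and 699, NSUN4 was at -0.19 and FARS2 at -0.34. The cause was not tested. Depth limits the scarce t entries most. Of those that passed the low-count filter, 5 had 0 counts in sperm, as did t01, t17, t18 and t19, which did not pass it. The smallest sperm library held 13.7 M counts. The planned comparison with rat libraries was not run.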
